A study of Mus musculus with 10 samples.

Results

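The respiratory chain subunits were taken as a group of 88 genes among the 15223 genes tested, in C2C12, a cloned mouse line whose myoblasts form myotubes in low serum. Members were the genes with a mean of at least 3 on the deposited log2 scale whose symbol is that of a subunit of complexes I to V (Nduf, Sdh, Uqcr, Cox4 to Cox8, Atp5 and mitochondrial mt- genes), with Cyc1 and Cycs and without pseudogene symbols. Of the 88, 81 are encoded in the nucleus and 7 in mitochondrial DNA. Complex I had 40 members, complex II 4, complex III 10, complex IV 16 and complex V 16. The remaining pair was Cycs, the cytochrome c that carries electrons between complexes III and IV, and Atp5s, which matched by its symbol but is not a subunit of the enzyme. A further 16 matching genes had too few reads to be tested and 8 carried pseudogene symbols.

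The study asked what raised Arrdc2 does to muscle cells. Wild-type C2C12 cells on collagen were differentiated in horse serum with insulin, received adenovirus on day 3, and were harvested 48 h later. The control group (GFP, n = 5) received virus carrying Gfp, and the other (Arrdc2, n = 5) received virus carrying Arrdc2 together with Gfp, so virus and Gfp were common to both. Polyadenylated RNA was sequenced with a directional kit as paired 50-base reads. The labels call the cell type a myoblast although the design speaks of myotubes. They do not say whether replicates came from separate cultures, so the spread behind the p-values is that of these samples and could be technical.

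The respiratory chain passes electrons from NADH (complex I) and succinate (complex II) through ubiquinone to complex III, by cytochrome c to complex IV and on to oxygen. Complexes I, III and IV pump protons, and complex V, the ATP synthase, uses the resulting gradient to make ATP. Mitochondrial DNA encodes the hydrophobic core of complexes I, III, IV and V, and the nucleus encodes all other subunits, so each of these enzymes is built from both genomes. In striated muscle several complex IV subunits exist as a muscle isoform and a ubiquitous one.

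Levels are given as normalised reads, that is whole reads recovered from the deposited values and divided by the library's size factor. Libraries held 18.93 M to 28.65 M reads (M, 10 to the power 6), with means of 22.4 M ± 2.62 (SD, n = 5) in GFP and 25.6 M ± 2.09 (SD, n = 5) in Arrdc2. Libraries are named by the number in their column name. Arrdc2 itself measured 90.4, 124.3, 109.2, 99.6 and 89.8 normalised reads in the GFP libraries (numbers 3 to 7) and 128.3, 123.3, 158.3, 118.0 and 132.5 in the Arrdc2 libraries (numbers 6, 7, 9, 10 and 11), the order used throughout. It was thus 1.29-fold higher (95% interval 1.09 to 1.51; adjusted p = 0.0178 by limma), with 3 of 5 Arrdc2 libraries above every GFP library. Leaving out GFP library 3 or 7 or Arrdc2 library 9 gave adjusted p of 0.0501, 0.0520 and 0.0570 by limma. These reads are those of the annotated mouse gene, and the part of viral Arrdc2 transcripts in them was not tested.

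Muscle markers were abundant in all libraries, with a sum over 8 myotube genes of 242287 to 260252 normalised reads in GFP and 224392 to 235200 in Arrdc2. Of these, 4 fell (Myh8, Acta1, Mylpf and Mb). Myog (fold 0.88), Tnnt3 (0.93), Myh3 (1.01) and Ckm (1.07) did not pass the threshold. Of 3 myoblast genes, Myf5 and Pax7 rose and Myod1 did not pass. Over all tested genes, 15.8% fell and 14.5% rose. The 4 fibroblast markers summed to 2516 to 3089 in GFP and 3473 to 3913 in Arrdc2. Of them 2 were tested, 1 was higher (Dcn), and Thy1 was under 1 read. Of the 4 cardiac or slow-fibre genes 3 were tested and 2 fell (Myl2 and Myh6), with sums of 469.2 to 745.8 and 419.1 to 564.2. Sums of the macrophage genes (89.6 to 97.9) and endothelial genes (7.71 to 15.5) were low over all 10 libraries, and all 4 adipocyte and all 3 neural markers averaged under 1 read. In a bulk sample, fewer cells of a type and less RNA per cell cannot be told apart, and the part of these marker shifts in the results was not tested.

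A pair of short sequences illustrates a mitochondrial gene with and one without sequence shared with another gene, and a pair of promoters illustrates the motifs searched for. The first 50 bases of mt-Co2, the gene of complex IV subunit 2, occur identically in the transcript of another gene, Gm28661 on chromosome 1. Those of mt-Nd1, a complex I core subunit, occur in no other annotated transcript. Both are given 5′ to 3′ from the GENCODE vM21 transcripts (GRCm38), with no part in capitals.
mt-Co2: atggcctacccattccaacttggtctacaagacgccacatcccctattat
mt-Nd1: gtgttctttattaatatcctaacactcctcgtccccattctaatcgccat

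The 250 bases before the start of Cox8b, a muscle isoform of a complex IV subunit, and of Cox6a1, the ubiquitous partner of Cox6a2, are from RefSeq's GRCm38.p6 promoter table. Cox8b lies at chr7:140900447-140900696 and Cox6a1 at chr5:115348959-115349208, both on the minus strand and written in the direction of the gene. Capitals mark the letters that matched a searched motif on either strand, which are an E-box (CAGCTG) in Cox8b and a pair of NRF1 motifs (GCGC, any base, TGCGC) and an ETS motif (CCGGAAG) in Cox6a1. The table holds no window for Cox6a2. These are examples rather than a contrast of isoform classes, since neither the muscle isoform Cox7a1 nor its partner Cox7a2 held any of the motifs, and Cox8a held the ETS motif alone.
Cox8b: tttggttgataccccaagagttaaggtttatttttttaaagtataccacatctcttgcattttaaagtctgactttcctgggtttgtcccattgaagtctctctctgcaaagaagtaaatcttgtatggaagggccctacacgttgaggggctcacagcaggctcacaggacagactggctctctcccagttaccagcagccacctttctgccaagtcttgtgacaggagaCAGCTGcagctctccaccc
Cox6a1: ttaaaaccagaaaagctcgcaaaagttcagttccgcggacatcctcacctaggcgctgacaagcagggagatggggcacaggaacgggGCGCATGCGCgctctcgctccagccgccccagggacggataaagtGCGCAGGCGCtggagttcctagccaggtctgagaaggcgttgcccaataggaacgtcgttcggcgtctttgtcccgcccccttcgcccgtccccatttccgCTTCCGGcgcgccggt

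A window of 250 bases before to 50 after the start was found for 67 of the 81 nuclear members. The NRF1 motif, bound by a transcription factor of respiratory genes, was in 17 of them (25.4%), against 5.19% of the 27025 genes with a window. The ETS motif, the kind bound by GABP (also called NRF2), was in 23.9% against 9.93%, the YY1 motif ATGGCGG in 14.9% against 4.69%, and the ERR motif AAGGTCA in 11.9% against 5.38%. The E-box of muscle factors was in 8.96% of members against 18.3% of genes, and the MEF2 motif was in none of the members against 3.7% of genes. None of the motifs contains another, and both strands were searched. The 27025 genes were taken whatever their level in these cells. No share over expressed genes or genes of like level was made, so these contrasts may not be particular to respiratory genes. Of the 6 members that rose, 2 had the NRF1 motif and 1 the ETS motif. Of the 4 that fell, only 2 had a window, and neither held any of the 6 motifs.

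Across the whole set the subunit transcripts differed little between groups. Of 88 members, 6 rose and 4 fell (11.4%), against 30.3% of all tested genes in either direction, 14.5% higher and 15.8% lower. Among the 10600 genes at least as high as the lowest member, 36.9% passed the threshold. In 4 members all 5 Arrdc2 libraries lay outside the range of GFP, while 19.7% of all tested genes did so. The median log2 difference on the deposited scale was 0.002 over members and 0.003 over all tested genes. The median size of the log2 difference on the deposited scale was 0.038 in members and 0.048 over all tested genes. From the recovered reads, where differences are not shrunk, it was 0.054 and 0.131. All tested genes include those of lower level than any member.

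No member differed by over 1.25-fold, and 80 of 88 differed by less than 1.1-fold. For 85 members the 95% interval of the fold lay within 1.25-fold in either direction, and for 37 within 1.1-fold. The median coefficient of variation between replicates was 4.42%. The balance of the small changes depended on the scaling. Centring each library on its median gave 3 members higher and 7 lower, and scaling by total reads gave 18 higher and 1 lower. Over all genes, rises made up 47.9% of calls as deposited, 37.4% after centring and 63.3% with total reads.

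**Figure D1:**
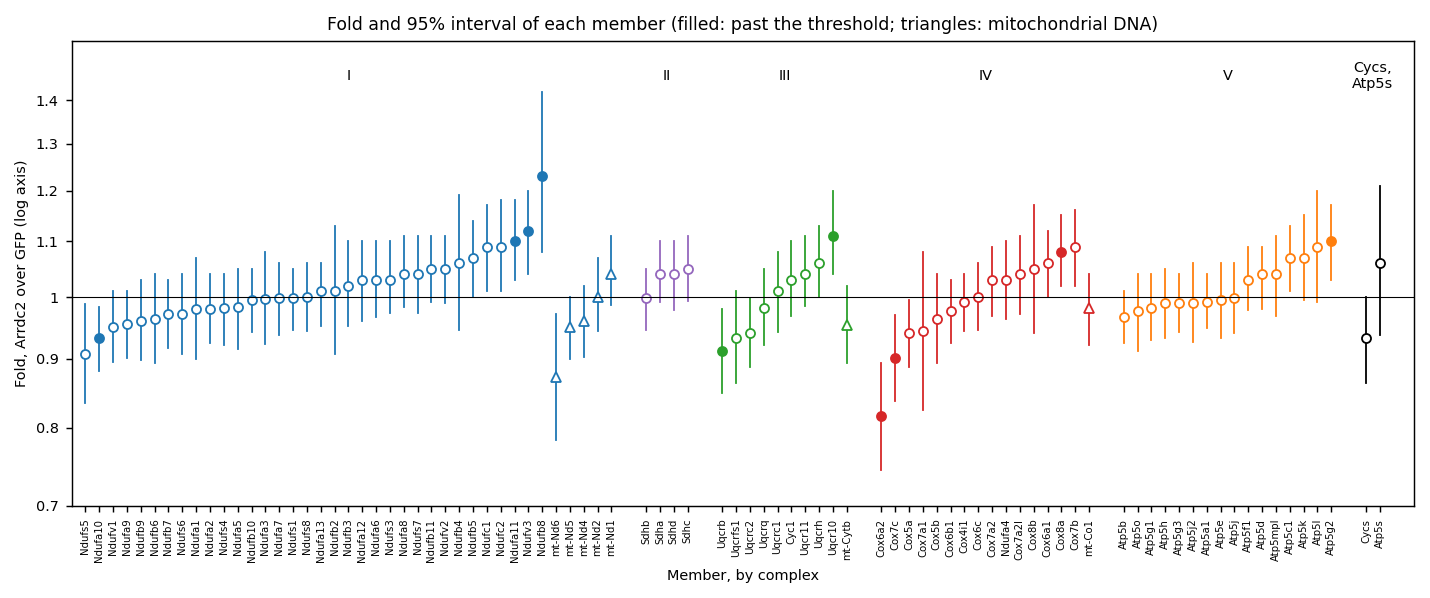
Fold of Arrdc2 over GFP on a log axis for the members, 1 left out, grouped by complex, with its 95% interval from voom on recovered reads; filled symbols passed the threshold on the deposited values and triangles are genes of mitochondrial DNA. Most intervals cross 1, Cox6a2 lies lowest at 0.816 and Ndufb8 highest at 1.23.

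Complex I showed 3 rises and 1 fall among 40 members (10% called, against 30.3% of all tested genes). None of its 12 measured core subunits, which bind the flavin, iron-sulphur clusters and ubiquinone or form the proton pump, passed the threshold, 7 being nuclear and 5 mitochondrial. The core subunit mt-Nd6 had the largest log2 difference of the complex on the deposited scale, -0.14 (adjusted p = 0.0507 by limma), and passed in 5 of 20 alternatives. All 4 called members were among the 28 accessory subunits (14.3% called), which surround the core. The median log2 difference of these 28 was 0.002. Core and accessory subunits were not tested against each other.

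Ndufv3, an accessory subunit of the NADH-binding module, measured 1185, 1255, 1107, 1148 and 1204 normalised reads in the GFP libraries and 1285, 1289, 1313, 1451 and 1245 in the Arrdc2 libraries. In 4 of 5 cases the Arrdc2 library was above every GFP library, and number 11 lay inside the GFP range. Ndufv3 was 1.12-fold higher (95% interval 1.04 to 1.20), with a log2 difference of 0.11 ± 0.03 (SE) on the deposited scale and an adjusted p of 0.0178. It passed in all 20 alternatives.

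Ndufb8, an accessory subunit of the membrane arm, measured 103.0, 123.0, 125.8, 100.6 and 110.2 in GFP and 148.5, 144.5, 125.9, 136.0 and 139.4 in Arrdc2. The groups touched without overlapping, with a lowest Arrdc2 value of 125.9 and a highest GFP value of 125.8. The rise was 1.23-fold (1.08 to 1.42; adjusted p = 0.0188 by limma). It did not pass without GFP library 6 (adjusted p = 0.0539). Ndufb8 had the lowest level per kilobase of the complex, and the GRCm38 annotation gives it 134 exonic bases in common with Gm20538 on the same strand.

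Ndufa11, a membrane-arm subunit, averaged 1274 ± 41.0 (SD, n = 5) in GFP and 1404 ± 87.7 (SD, n = 5) in Arrdc2, a rise of 1.10-fold (1.03 to 1.18; adjusted p = 0.0299 by limma). Leaving out any of GFP libraries 4 and 6 and Arrdc2 libraries 7, 10 and 11 ended the call (adjusted p 0.0571 to 0.0802). Ndufa10, an accessory subunit beside the same arm, measured 5155, 4774, 4685, 4674 and 5106 in GFP and 4426, 4528, 4538, 4636 and 4575 in Arrdc2. Every Arrdc2 library was lower than every GFP library. The fall was 1.07-fold (1.02 to 1.13; adjusted p = 0.0471 by limma), and leaving out any of 7 libraries (GFP 3, 4 or 7; Arrdc2 6, 7, 9 or 11) gave adjusted p of 0.0586 to 0.138. Ndufb1-ps, a pseudogene by its symbol that the rule set aside, held 6911 reads in all and did not pass (705.9 ± 39.1 against 664.3 ± 64.8, SD, n = 5; adjusted p = 0.307 by limma).

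Complex II, whose 4 subunits are all nuclear and which also serves the citric acid cycle, had no member past the threshold as deposited. After quantile normalization or total-read scaling, Sdha and Sdhc passed as higher (0.00896 to 0.0407). Sdhb, the iron-sulphur subunit, averaged 3249 ± 85.2 and 3245 ± 123 normalised reads (SD, n = 5). Sdhc, a membrane anchor, had the largest log2 difference of the complex on the deposited scale, 0.05 ± 0.03 (SE; adjusted p = 0.173 by limma), and a fold of 1.05 (0.994 to 1.11).

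Complex III had 1 rise and 1 fall among 10 members (20% called, against 30.3% of all tested genes). Uqcr10, a small subunit, measured 1903, 1726, 1801, 1695 and 1757 in GFP and 1810, 1962, 2112, 2144 and 1887 in Arrdc2. The ranges overlapped, with 3 of 5 Arrdc2 libraries above all of GFP. It was 1.11-fold higher (1.04 to 1.20; adjusted p = 0.0215 by limma), and without GFP library 4 or 6 or Arrdc2 library 9 or 10 the adjusted p was 0.0518 to 0.0646. Uqcrb, a ubiquinone-binding protein of the complex, averaged 1849 ± 146 in GFP and 1682 ± 56.4 in Arrdc2 (SD, n = 5). Its fall of 1.10-fold (1.02 to 1.18; adjusted p = 0.0473 by limma) did not pass on leaving out GFP library 3, 6 or 7 or Arrdc2 library 6, 7, 9 or 11 (0.0553 to 0.142), nor on recovered reads. Of its 50-base windows 43.2% occur in other genes. Uqcrc2, a core protein, had a fold of 0.941 (0.887 to 0.999; adjusted p = 0.114 by limma).

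Complex IV had 1 rise and 2 falls among 16 members (18.8% called, against 30.3% of all tested genes). It held the largest log2 difference of the set on the deposited scale. Cox6a2, the striated-muscle isoform of subunit 6A, measured 852.6, 794.1, 830.9, 825.9 and 865.2 normalised reads in the GFP libraries. It measured 614.1, 715.8, 599.9, 761.2 and 723.9 in the Arrdc2 libraries. The groups did not overlap, and Arrdc2 libraries 6 and 9 were lowest. Cox6a2 fell 1.23-fold (95% interval 1.12 to 1.34), with a log2 difference of -0.19 ± 0.04 (SE) and an adjusted p of 0.00137. On recovered reads, where differences are not shrunk, its log2 difference of -0.29 was no larger in size than the 0.30 of Ndufb8. It passed in all 20 alternatives, with adjusted p from 0.000247 to 0.00583. The myotube marker sum given above was also lower in every Arrdc2 library, and its part in the Cox6a2 result was not tested. In the GRCm38 annotation, 70 of 680 exonic bases of Cox6a2 lie under Itgad on the opposite strand.

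Cox8a, the ubiquitous isoform of subunit 8, measured 3076, 2948, 3111, 3016 and 2809 in GFP and 3184, 3298, 3347, 3311 and 3077 in Arrdc2. Only Arrdc2 library 11 lay within the GFP range. The rise was 1.08-fold (1.02 to 1.15; adjusted p = 0.0301 by limma), and without GFP library 4 or 7 or Arrdc2 library 7, 9 or 10 the adjusted p was 0.0523 to 0.0932. Cox7c, a small structural subunit, averaged 1272 ± 63.0 in GFP and 1147 ± 79.8 in Arrdc2 (SD, n = 5). It fell 1.11-fold (1.03 to 1.19; adjusted p = 0.0312 by limma), a call that ended on leaving out GFP library 3, 6 or 7 or Arrdc2 library 6, 7 or 11 (0.0557 to 0.0947). Of its windows 53.0% occur in other genes.

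**Figure D2:**
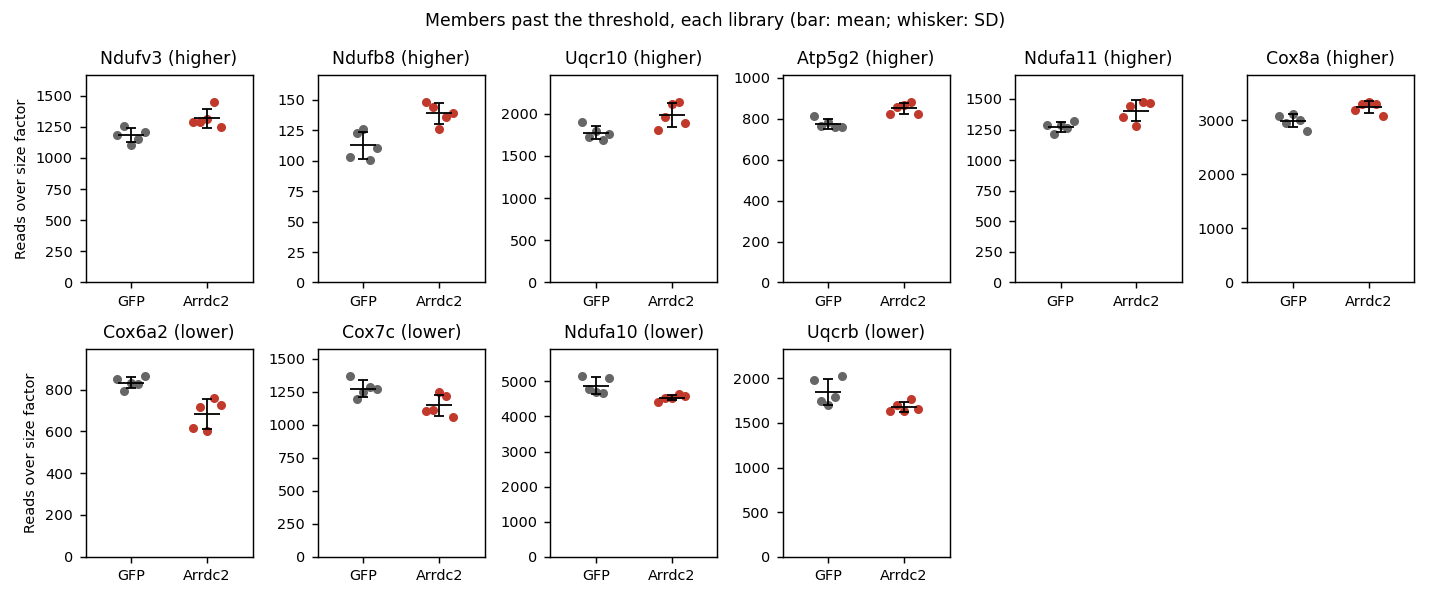
Normalised reads in each of the 5 GFP and 5 Arrdc2 libraries for the 10 members past the threshold, on axes that start at 0, with bars for the mean and whiskers for the SD. The groups are apart in Ndufb8, Atp5g2, Cox6a2 and Ndufa10 and overlap in the other 6.

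Of the 3 muscle isoforms measured, Cox6a2 fell, and Cox7a1 and Cox8b did not pass the threshold. Each pair was compared within a library, as the log2 difference between the muscle gene and its partner on the deposited scale. Cox6a2 made up 16.8, 17.3, 17.2, 16.7 and 18.7% of the per-kilobase reads of Cox6a2 and Cox6a1 in the GFP libraries, and 12.9, 14.6, 12.1, 15.3 and 15.0% in the Arrdc2 libraries. All 5 Arrdc2 shares were below all 5 GFP shares. The log2 ratio was 0.25 lower in Arrdc2, -2.31 against -2.06 (exact 2-sided permutation test over all assignments of the 10 libraries, p = 0.00794, the smallest it can give; 0.0238 adjusted over 3 ratios). Cox6a1 alone had a fold of 1.06 (1.00 to 1.12; adjusted p = 0.122 by limma).

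Cox7a1, the muscle isoform of subunit 7A, made up 10.1% ± 0.9 of its pair with Cox7a2 in GFP and 9.24% ± 0.62 in Arrdc2 (SD, n = 5; log2 ratio difference -0.06, exact permutation p = 0.143, adjusted 0.214). Cox8b, the muscle isoform of subunit 8, made up 11.7% ± 1.1 and 11.4% ± 1.0 of its pair with Cox8a (SD, n = 5; -0.06, exact permutation p = 0.286, adjusted 0.286). Cox7a1 averaged 138.8 and 130.2 normalised reads, with an interval of 0.825 to 1.08 for its fold. Cox8b averaged 259.1 and 272.6, with an interval of 0.941 to 1.17. Whether Cox6a2 differed from the other muscle isoforms in its response was not tested.

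**Figure D3:**
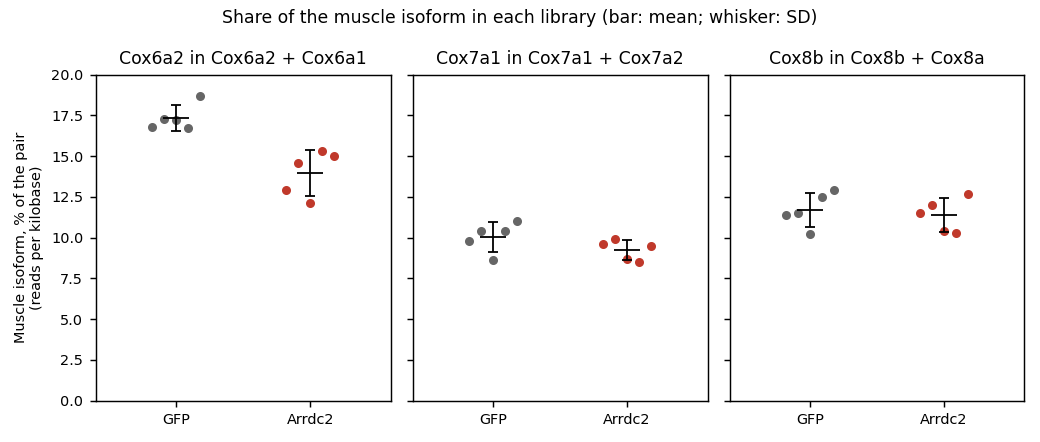
Share of the muscle isoform in the reads per kilobase of its pair, in percent, for each GFP and Arrdc2 library, with bars for the mean and whiskers for the SD. The Cox6a2 shares separate at 16.7 to 18.7% and 12.1 to 15.3%, and those of Cox7a1 and Cox8b overlap.

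Other isoform genes of complex IV were nearly silent. Cox4i2, an isoform induced by low oxygen in other cells, had 10 reads over all 10 libraries, while its partner Cox4i1 averaged 8461 ± 313 in GFP and 8392 ± 94.0 in Arrdc2 (SD, n = 5). Ndufa4l2 had 59 reads, against 4231 ± 230 and 4347 ± 226 for Ndufa4, a subunit of complex IV despite its name. The testis isoforms Cox6b2, Cox7b2 and Cox8c had 37, 3 and 0 reads. Cox7a2l, which links complexes III and IV, had a fold of 1.04 (0.971 to 1.11; adjusted p = 0.404 by limma).

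Complex V had 1 rise and no fall among 16 members (6.25% called, against 30.3% of all tested genes). None of the 5 subunits of the catalytic F1 head, the 4 of the stalk or the 4 of the membrane part other than the c ring passed. Subunit c, which forms the rotating ring, is encoded by 3 genes that give the same mature protein. Atp5g2 measured 814.9, 762.4, 782.8, 759.5 and 758.3 in GFP and 823.2, 859.4, 865.0, 883.3 and 822.8 in Arrdc2. Every Arrdc2 library exceeded every GFP library, for a rise of 1.10-fold (1.03 to 1.17; adjusted p = 0.0277 by limma).

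On leaving out GFP library 4, 6 or 7 or Arrdc2 library 7, 9 or 10 the Atp5g2 call ended (0.0569 to 0.0636), and 100% of the 50-base windows of Atp5g2 occur in other genes. The genes Atp5g1 (fold 0.981, 0.929 to 1.04) and Atp5g3 (0.991, 0.943 to 1.04) did not pass, and per kilobase of transcript Atp5g3 was highest in GFP at 11524, against 3365 for Atp5g1 and 1759 for Atp5g2. Atp5b, the catalytic beta subunit, was the highest nuclear member at 26727 per kilobase and had a fold of 0.966 (0.925 to 1.01). Cycs had a fold of 0.932 (0.864 to 1.00; adjusted p = 0.141 by limma), and passed without Arrdc2 library 10 (0.0144) and with library weights (0.0454).

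Per kilobase, levels in GFP spread widely within each complex and less between the medians of the complexes. The nuclear members had medians of 1931 normalised reads per kilobase in complex I, 2686 in II, 3698 in III, 3417 in IV and 3780 in V. The same medians in Arrdc2 were 1888, 2790, 3814, 3301 and 3862. In complex I the lowest was Ndufb8 at 165.5, and in complex II they ran from 1204 for Sdhc to 2845 for Sdhb. In complex III they ran from 2187 for Uqcrc2 to 8614 for Uqcrq, in complex IV from 353.1 for Cox7a1 to 11357 for Cox4i1, and in complex V from 687.4 for Atp5l to 26727 for Atp5b. The length is that of 1 annotated principal transcript, so levels of genes with varied ends are approximate. The part of shared sequence in the levels was not tested. Of the lowest members, Atp5l has 68.5% and Ndufb8 13.5% of its 50-base windows in other genes, Sdhc 0.1%, and Uqcrc2 and Cox7a1 0.0%.

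**Figure D4:**
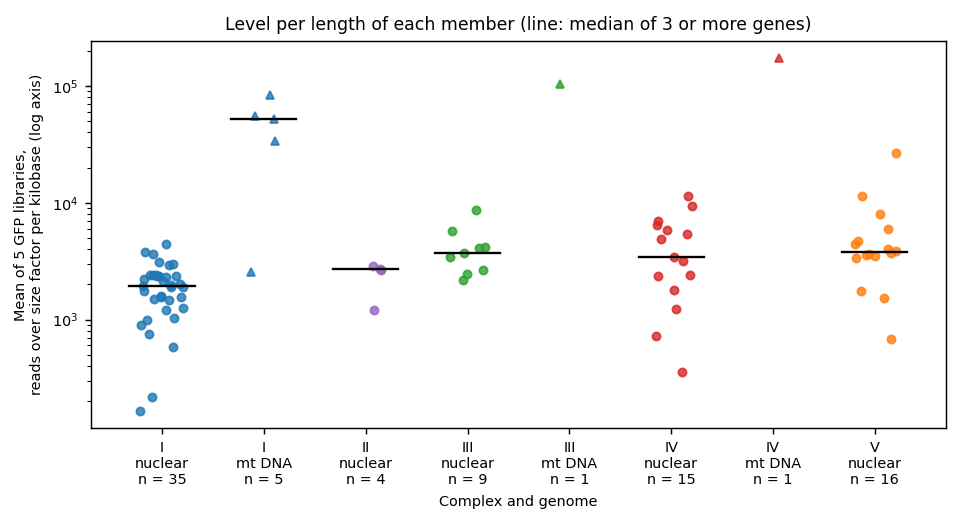
Mean level of each member in the 5 GFP libraries, in normalised reads per kilobase of transcript on a log axis, by complex and genome, with a line at the median of 3 or more genes. Genes of mitochondrial DNA lie above the nuclear ones of their complex, except mt-Nd6 at 2555.

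The mitochondrial members were far more abundant than the nuclear ones, and none passed the threshold. Their levels per kilobase in GFP ran from 2555 for mt-Nd6 to 172183 for mt-Co1, the catalytic subunit of complex IV, with 103680 for mt-Cytb, the cytochrome b of complex III. Of the 7, 5 had a negative difference, with a median log2 difference of -0.047, against 0.006 over the 81 nuclear members. The folds were 1.04 for mt-Nd1, 1.00 for mt-Nd2, 0.961 for mt-Nd4, 0.951 for mt-Nd5, 0.982 for mt-Co1 and 0.953 for mt-Cytb.

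The largest difference was that of mt-Nd6, the complex I gene on the other strand of mitochondrial DNA. It measured 1314, 1369, 1335, 1374 and 1240 in GFP and 1263, 1270, 1325, 967.2 and 1008 in Arrdc2. Arrdc2 libraries 10 and 11 were low and the other 3 lay within the GFP range. The log2 difference was -0.14 ± 0.05 (SE; adjusted p = 0.0507 by limma). It passed when GFP library 7 or Arrdc2 library 6, 7 or 9 was left out (0.0179 to 0.0469) and after centring on the median (0.0282). It overlaps mt-Nd5 by 14 bases on the opposite strand, and how the authors' counting treated strand is not stated.

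Within each library, the mean log2 value of the 7 mitochondrial members was 4.662, 4.707, 4.622, 4.670 and 4.732 above that of the 81 nuclear members in the GFP libraries, and 4.621, 4.656, 4.633, 4.594 and 4.656 above it in the Arrdc2 libraries. The Arrdc2 mean was 0.046 lower, with overlapping groups, and no test was made. All mitochondrially encoded genes, not the 7 members alone, took 3.00% ± 0.18 of counted reads in GFP and 2.98% ± 0.13 in Arrdc2 (SD, n = 5). The 81 nuclear members took 1.10 to 1.19%.

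The other 6 protein-coding genes of mitochondrial DNA had 0 to 7 reads over all 10 libraries and were not tested. For 5 of them, 98.0 to 100% of the 50-base windows of the transcript occur in other annotated genes, as the mt-Co2 sequence above shows. These were mt-Co2 (7 reads), mt-Co3 (6), mt-Atp6 (4), mt-Nd4l (1) and mt-Nd3 (0). The sixth, mt-Atp8 (2 reads), shares no window but overlaps mt-Atp6 by 43 of its 204 bases on the same strand. The part of the shared sequence in these low counts was not tested. The other genes took few reads themselves, 137 for Gm28661 and 388 for Gm28438, which holds the windows of mt-Nd3. Among the members, 62.2% of the windows of mt-Nd4 and 51.1% of those of mt-Co1 are shared, and none of those of mt-Nd1, mt-Nd6 and mt-Cytb.

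**Figure D5:**
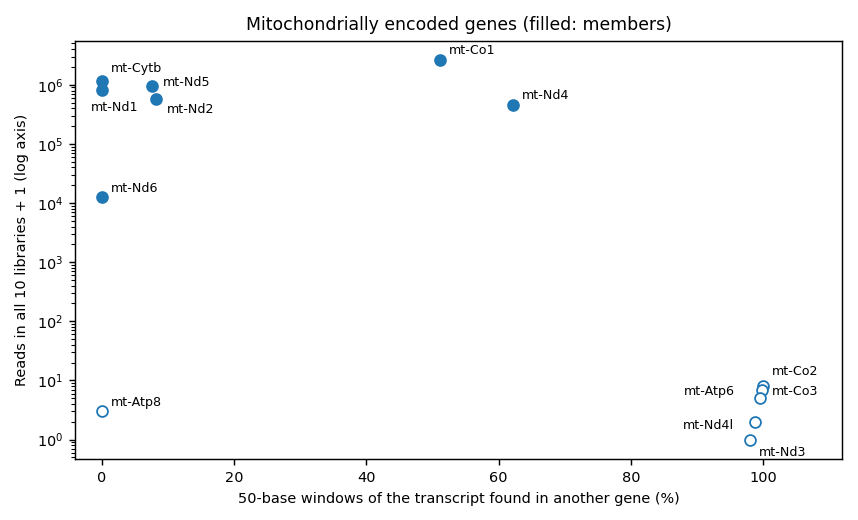
Reads over all 10 libraries plus 1, on a log axis, against the percentage of 50-base transcript windows found in another annotated gene, for the 13 protein-coding genes of mitochondrial DNA. The 5 genes at 98.0 to 100% lie at the bottom right, mt-Atp8 at the bottom left, and the 7 members, filled, above.

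Shared sequence was not limited to mitochondrial DNA. Of 88 members, 46 share no 50-base window with another gene and 18 share over 20%. Of the 46, 3 rose and 2 fell (10.9%), and of the 18, 1 rose and 2 fell (16.7%). The share over all tested genes was 30.3%, and these sets of members were not tested against each other. Exons of 34 members overlap another gene, 28 of them on the opposite strand.

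Genes that serve the chain and are not members were counted in 4 lists. The 3 called genes of each with the largest difference on the deposited scale are given by fold. Of 29 genes of mitochondrial DNA upkeep, transcription and RNA handling, 10 fell and none rose (34.5% called), with a median log2 difference of -0.035. Among all tested genes 30.3% were called, 15.8% lower and 14.5% higher. Twnk, the helicase of mitochondrial DNA, fell 1.29-fold (957.5 ± 53.2 to 741.0 ± 48.1 normalised reads, SD, n = 5; adjusted p = 3.8e-05 by limma). Trmt10c, a subunit of mitochondrial RNase P, fell 1.26-fold, and Elac2, which trims the 3′ ends of tRNA precursors, fell 1.23-fold. Fastkd5, a mitochondrial RNA-binding protein, fell 1.28-fold, more than Trmt10c and Elac2 by fold but less on the deposited scale. Of 14 regulators of respiratory genes, 5 fell and 1 rose (42.9% called). Pprc1, a coactivator related to PGC-1, fell 1.28-fold (1960 ± 196 to 1527 ± 63.6, SD, n = 5; adjusted p = 9.6e-05 by limma), Yy1 fell 1.16-fold and Esrra rose 1.10-fold. Esrrg, a nuclear receptor related to Esrra, had the largest fold of the 6 called, 1.48-fold lower. It averaged 24.0 normalised reads in GFP and 16.2 in Arrdc2 (adjusted p = 0.0475 by limma). It passed in 7 of the 19 alternatives that included it. Neither Ppargc1a (fold 1.12, 0.991 to 1.26) nor Nrf1 (0.953, 0.888 to 1.02) passed.

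Of 56 assembly factors, 8 rose and 2 fell (17.9% called), with a median log2 difference of -0.005. Higd2a, which joins complex IV to larger assemblies, rose 1.18-fold (618.5 ± 19.8 to 730.1 ± 38.8, SD, n = 5; adjusted p = 0.00126 by limma), Oxa1l, an inner-membrane insertase, rose 1.15-fold and Sco1, a copper chaperone of complex IV, fell 1.16-fold. Of 23 genes of electron carriers, ubiquinone synthesis, nucleotide carriers and uncoupling, 3 rose and 1 fell (17.4% called). This list also holds Ndufab1, an accessory subunit of complex I whose symbol the membership rule does not match. Ndufab1 averaged 772.7 ± 29.7 in GFP and 775.9 ± 50.2 in Arrdc2 (SD, n = 5; adjusted p = 0.957 by limma). Ucp2, an inner-membrane carrier, rose 1.14-fold, Pdss1, which makes the ubiquinone side chain, fell 1.21-fold and Etfdh, which hands electrons from fatty acid and amino acid oxidation to ubiquinone, rose 1.09-fold. These shares of called genes stand beside the 30.3% over all tested genes, and the differences between lists were not tested.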

How the data were processed

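The authors deposited 1 table of regularized log2 values (rlog; whole-series, 57010 genes), which are shrunken log2 read counts scaled by library. Per the submitters' processing notes, STAR 2.7.10a, DESeq2 1.30.1 and GRCm39 were used; for the counter, annotation and strand setting, nothing is given in the sources used here. Column numbers do not match the labels' replicate numbers, so columns were used as replicates of their group. All members and lists were chosen with earlier results of these data known.

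Differences were tested with limma 3.58.1 (R 4.3.3; group model, mean-variance trend) on the deposited values of the 15223 genes with mean of at least 3, with Benjamini-Hochberg adjustment and a threshold of 0.05. Fold changes on that scale understate change, so folds and 95% intervals are from voom on recovered reads with the authors' size factors. Reads were recovered by inverting the shrinkage; of 16053 genes held out, 99.407% of values came within 0.1 of a whole read (20% by chance), but 89.371% above 10000 reads. The inversion and the limma fit were also run on simulated data. There the inversion was given the parameters used to simulate the shrinkage, so that run did not test their estimation. The recovered-read fit called 4564 genes. No 2 libraries of a group agreed within sampling noise (chi-square per gene 2.61 to 16.9). Symbols (52029 of 57010), lengths and 50-base windows came from GENCODE vM21 (GRCm38), another build than the authors'; a pair of reads can be unique where a window is not. Named were every called member, all mitochondrial members, the isoform pairs and the 3 c-ring genes. Per complex, the highest, lowest and most changed member were also named. So were the 3 called genes of each other list with the largest difference on the deposited scale. Uqcrq, Cycs, Sdha, Esrrg, Fastkd5, Ndufab1, Ndufb1-ps, Cox6b2, Cox7b2, Cox8c, Ppargc1a and Nrf1 were added after their values were seen. The values of 1 member are not reported here. Alternatives covered scaling, filters, weights, recovered reads and leaving out each library. Python 3.11.15 was used otherwise.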

Additional observations from a re-analysis of the deposited data

Results flagged for a closer look

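In 2 of 72 groups of 5 libraries checked, 1 library stood apart from the other 4; chance alone marks about 1 group in 20. For Sdhc, a complex II membrane anchor, Arrdc2 library 7 was highest at 12.02 on the deposited log2 scale, with the others at 11.93 to 11.95. For Atp5l, subunit g of complex V, Arrdc2 library 10 was highest at 8.73, with the others at 8.61 to 8.63; 68.5% of the 50-base windows of Atp5l occur in other genes.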

How the results depend on the processing

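Over the tested genes, the counts of rises and falls stayed within 1.5 times the main values in every alternative run. The members' counts (6 higher, 4 lower) did not: higher and lower were 3 and 7 after centring libraries on their medians, 11 and 3 after quantile normalization, 3 and 1 without a filter on low values, 18 and 1 on recovered reads scaled by total reads, and 17 and 1 when mitochondrially encoded genes were left out of that total. The unfiltered fit tested 32107 genes; otherwise the cause was not tested. Leaving out 1 library gave 2 to 8 higher and 1 to 6 lower. The log2 difference of Arrdc2 was 0.108, and 0.086 (adjusted p = 0.0518) after quantile normalization; leaving out 1 library gave 0.085 to 0.127. The Cox6a2 to Cox6a1 ratio difference was -0.38 on recovered reads and -0.27 to -0.21 with 1 library left out (exact permutation p 0.0159, the smallest possible there). Other alternatives also ended calls: centring those of Ndufa11, Cox8a and Atp5g2 (adjusted p 0.0605 to 0.0651), quantile normalization those of Ndufb8 (0.0705), Ndufa10 and Uqcrb, total reads those of Ndufa10, Uqcrb and Cox7c, and fitting without a filter those of Ndufa10, Ndufa11, Uqcr10, Uqcrb, Cox7c and Cox8a; Uqcrb was also lost with no variance trend and in each recovered-read fit (0.0505 to 0.173 over its 7 alternatives). Cox6a1, Sdha and Sdhc passed after quantile normalization or total-read scaling (0.00896 to 0.0407). No result changed its sign in a called value. No paired analysis was possible because the labels give no pairing of GFP with Arrdc2 samples. The column numbers also do not correspond to the labels' replicate numbers. The smallest fold past the threshold was the 1.07 of Ndufa10, and 80 of 88 members differed by less than 1.1-fold.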
